A study of Caenorhabditis briggsae with 13 samples.

Results

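The genes described here had a low, level signal in 4-cell and 28-cell embryos of the nematode Caenorhabditis briggsae, stepped up at 55 cells and stood within 1 log2 unit of that height or higher at 190 cells. They were chosen from their measured stage means: a 4-cell level of -2 or less, a 28-cell level within 1 of it, a 55-cell level at least 2 above the 28-cell level, a 95-cell level less than 1 above the 55-cell level, and a 190-cell level no more than 1 below the 55-cell level and of at least -1. A level is the log2 intensity of a gene minus the 75th percentile of its array, averaged over the gene's probes, so that 0 is the array's 75th percentile and a difference of 1 is 2-fold. The rule found 23 genes of 19528, measured by 67 of 42034 gene probes. Because the rule used the stage means of all 13 arrays, those means and the differences between them are a description, and no test of them is offered as support.

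In nematode embryos the first divisions run largely on RNA that the mother placed in the egg. Transcription from the embryo's own genome starts during cleavage, and in C. elegans it then proceeds lineage by lineage as founder cells commit to gut, muscle, epidermis, pharynx and nerve. Gastrulation begins in C. elegans when the gut precursors move inward, and other lineages follow as division goes on. The array names genes by WormBase gene number only, and the reference table used here pairs 0 of the 23 numbers with a symbol, so roles are not given. Only 4 members are named by number below. The others are called by their rank of 190-cell level, from rank 1 (highest) to rank 23 (lowest). The rank serves as a name only, because intensities of different probes are not amounts of RNA on one scale.

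Each array measured total RNA from 50 embryos of strain AF16, the wild isolate behind the species' reference genome, with no treatment. There were 2 arrays of 4-cell embryos, 3 of 28-cell, 3 of 55-cell, 2 of 95-cell and 3 of 190-cell embryos, taken 0, 55, 80, 120 and 160 min after the 4-cell stage, and replicates were separate biological samples per the labels. Stages follow the sample titles. A separate stage tag contradicted the title on 4 of the 13 arrays, where it named the 4-cell stage. They were array A of the 55-cell and 95-cell stages and array B of the 28-cell and 190-cell stages. For 28-cell C the scanner file repeated that of 190-cell C, so its intensities came from the series table and it has no detection flags here. RNA came from whole embryos pooled in bulk, so more cells expressing a gene and more RNA per cell cannot be told apart. Precision is limited by how few arrays each stage has.

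Of 184 genes that met the first 3 conditions, from the low start to the step at 55 cells, 85 climbed by 1 or more again to 95 cells and 28 others dropped by more than 1 from 55 to 190 cells. Another 48 failed only on the final level of -1. The remaining 23 genes are the members. The smallest steps inside the threshold were 2.01, 2.01 and 2.02, and the genes just outside that met every other condition had steps of 1.96, 1.82 and 1.73. With each condition dropped in turn, 65 further genes would enter without the limit at 95 cells and 48 without the final level. It would be 42 without the step, 37 without the 28-cell limit and 7 without the 4-cell level. Without the limit on the fall from 55 to 190 cells 0 would enter, so each of the 28 that dropped also missed the final level.

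Membership depended on how arrays were put on one scale. When each array was scaled on the commonly detected probes, the rule found 16 genes, of which 3 were among the 23. All 20 members lost in that setting failed on the 28-cell limit and 0 on the step at 55 cells. The median 28-cell minus 4-cell difference of the members moved from 0.18 to 1.38, and that of all genes from -0.18 to 1.02. Scaling on spike-in controls shared 7 of 20 genes with the main setting and quantile normalization 16 of 24. No member failed on the step with these 3 scalings. With spike-in scaling 10 failed on the 28-cell limit and 9 on the 95-cell limit. With quantile normalization 4 failed on the 95-cell limit, 3 on the 28-cell limit and 2 on the 4-cell level. Normexp background correction with an offset of 50, which compresses dim signals, shared 3 of 20. There 16 members failed on the step and 12 on the 4-cell level. Spike-in scaling and normexp also left out 28-cell C.

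Single arrays mattered too. The rule found 15 genes without 55-cell C, all of them members. Of the 8 lost, 5 failed on the step and 3 on the 95-cell limit. Leaving out any other array gave 19 to 28 genes, and 8 members were kept in all 13 such settings. Without the 4 arrays with contradictory tags it found 25 genes, 15 of them members, and using the first scan date alone it found 22, with 16 members. Another 7 settings changed the scaling, the background correction, the probe choice or, as in these last cases, a group of arrays. Of the 23 members 0 were kept in all 7, and 0 were lost in every one.

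**Figure D1:**
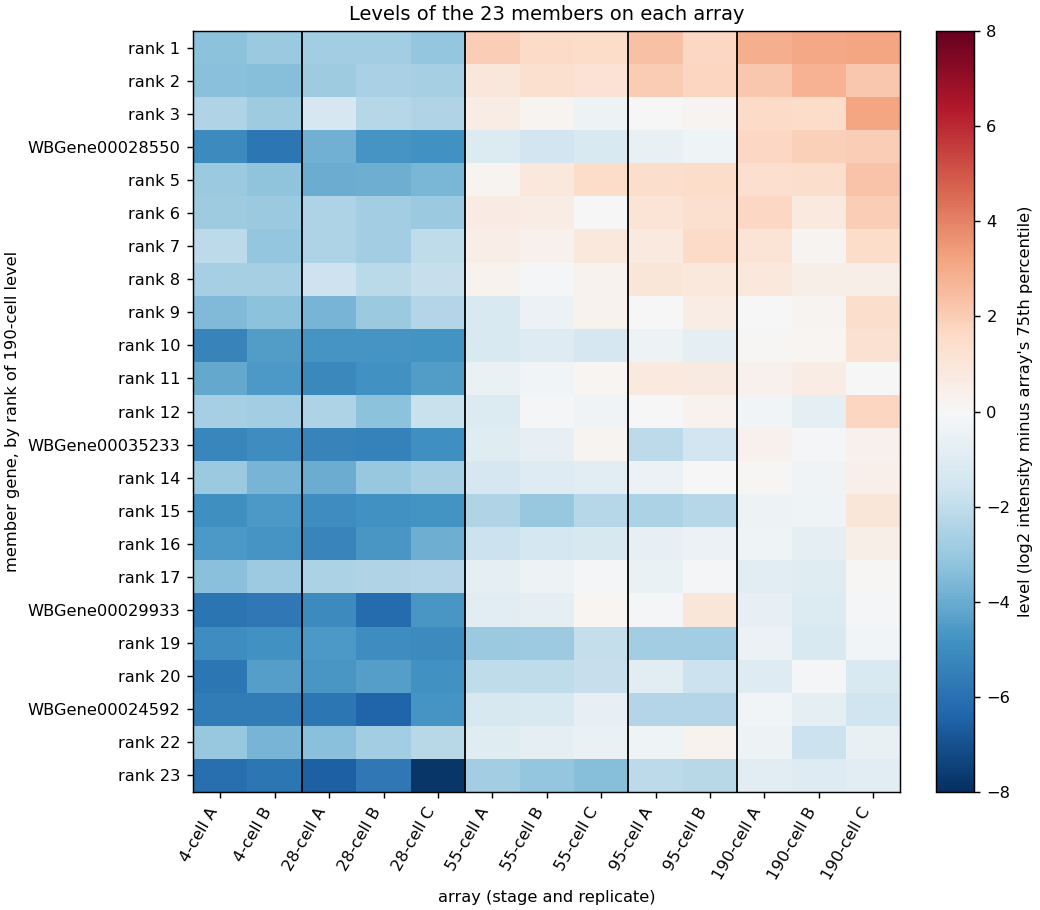
Level of each member on each of the 13 arrays (colour: log2 intensity minus the array's 75th percentile), with members in rows by rank of 190-cell level and black lines between stages. The 23 rows turn from blue at 4 and 28 cells to paler or red shades at 55 cells, where levels lay between -3.38 and 2.00.

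At the 4-cell stage the members' mean levels ran from -5.92 to -2.59, with a median of -3.39, and at 28 cells from -6.66 to -1.88, with a median of -3.82. At 55 cells they ran from -3.08 to 1.68 (median -0.48), at 95 cells from -2.78 to 1.98 (median -0.044) and at 190 cells from -0.95 to 3.05 (median 0.26). On the arrays themselves every 55-cell value of every member lay above every 28-cell and 4-cell value of the same gene. That was so of 23 of 23 members for 55 against 28 cells, where 19.8% of the 13443 genes tested showed it. Every 190-cell value likewise lay above every 28-cell value in 23 of 23, against 26.3% of genes tested. All 23 were also called higher at 55 than at 28 cells by limma (adjusted p under 0.05), against 12.6% of the genes tested. The rule chose the genes on these stage means, so nothing is read from the counts. Spike-in scaling, which left out 28-cell C, called 14 members.

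The step from 28 to 55 cells had a median of 3.14 on the log2 scale, or 8.85-fold, and ranged from 2.01 to 4.82. With the members that were dark at 28 cells set to their lower bound the median was 7.89-fold. The fold is a bound for genes whose probes were all dim (not well above background on any array with flags) at the lower stage. It sets the brighter mean against the higher of the probe's own signal and the lowest signal well above background, array by array. Bounds at 28 cells used arrays A and B only, and no bound allows for the spread between arrays.

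The largest measured step was that of WBGene00029933. With 4 of its 5 probes dim at 28 cells, and WBGene00024592 and rank 23 known only by bounds, which member had the largest true step is not known. It stood at -5.83 and -5.71 on the 4-cell arrays and at -5.11, -6.13 and -4.64 on the 28-cell arrays A, B and C. At 55 cells it read -0.83, -0.71 and 0.13, at 95 cells -0.076 and 0.97, and at 190 cells -0.68, -1.07 and -0.14. All arrays from 55 cells on stood above all earlier ones, and the 55-cell and 190-cell arrays overlapped. Its step was 4.82 (SE 0.43), or 28.3-fold between means that held dim probes at 28 cells, and against 4 cells its 190-cell level was at least 8.08-fold higher. None of its 5 probes was well above background on a 4-cell array.

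WBGene00035233 had nearly the same measured step but a different sequel. Of its 5 probes 5 were dim at 4 cells and 3 at 28 cells. Its 4-cell arrays read -5.23 and -4.98 and its 28-cell arrays -5.36, -5.38 and -4.88. At 55 cells it reached -0.94, -0.65 and 0.23, then stood at -2.1 and -1.55 on the 95-cell arrays, and at 0.31, -0.15 and 0.36 at 190 cells. Both 95-cell arrays lay below all 55-cell and all 190-cell arrays. The 95-cell minus 55-cell difference was -1.37 (SE 0.36) and the 190-cell minus 95-cell difference 1.99 (SE 0.36), and each of its 5 probes showed the dip. It was the only member called between 55 and 95 cells (limma adjusted p = 0.019, from 0.0027 to 0.999 over the other settings). The call was lost without 95-cell A (limma adjusted p = 0.18), without 55-cell C (0.054), without the contradictory tags (0.157), with no filter on dim probes (0.053) and with spike-in scaling. The replicate block called 4 members higher and 1 lower in this interval, and the scan-date block 2 higher and 2 lower. The scan-date block also left out 28-cell C, and leaving out that array alone likewise called 2 higher and 2 lower.

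WBGene00024592 had a dip of like size. After -5.62 and -5.57 at 4 cells and -5.75, -6.38 and -4.74 at 28 cells, it read -1.29, -1.21 and -0.67 at 55 cells. The 95-cell arrays gave -2.37 and -2.36, and the 190-cell arrays -0.23, -0.72 and -1.62. Both 95-cell arrays again lay below every 55-cell and 190-cell array. The step to 55 cells was at least 12-fold, and the 95-cell minus 55-cell difference was -1.31 (SE 0.47). The dip was seen with each of its 2 probes and was not called (limma adjusted p = 0.073). It was called with scan date as a block (limma adjusted p = 0.036) and with normexp (limma adjusted p = 0.031). Both settings also left out 28-cell C. Leaving out 28-cell C alone called it too (limma adjusted p = 0.035), as did leaving out 190-cell C (limma adjusted p = 0.045). Over all settings its limma adjusted p ran from 0.031 to 0.999. These were the only members whose 95-cell level lay more than 1 below the 55-cell level.

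**Figure D2:**
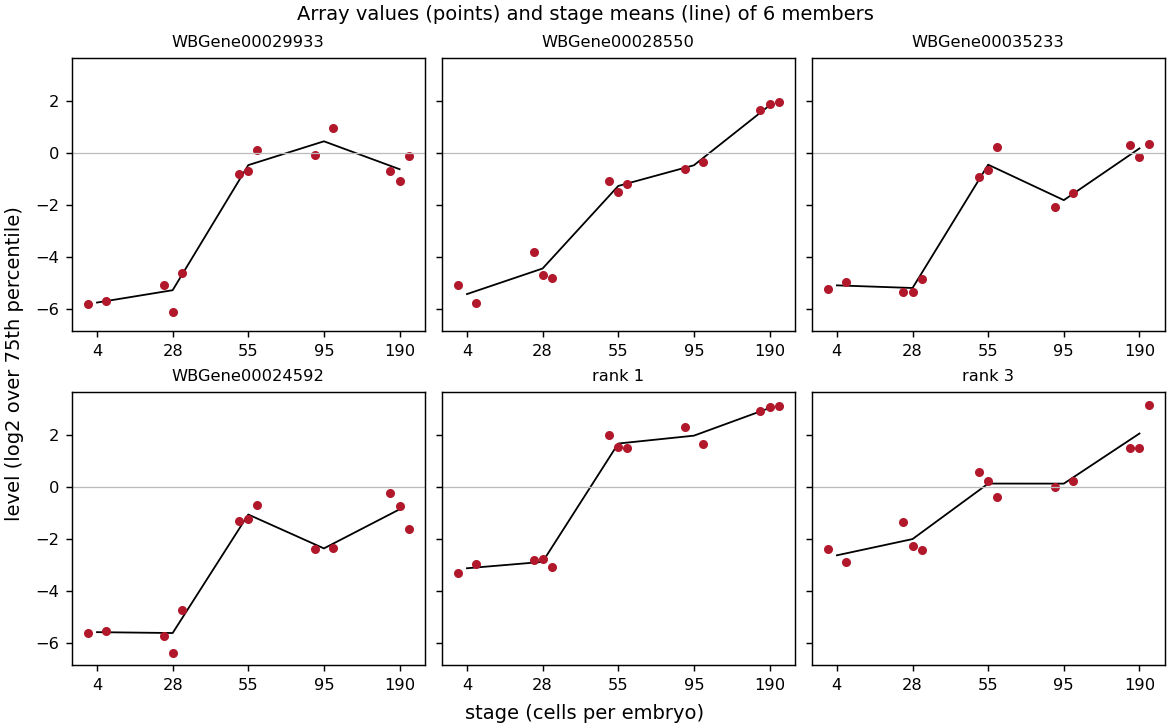
Levels on each array (points) and stage means (lines) for the 4 members named by number and for ranks 1 and 3, against stage in cells per embryo, with 0 the array's 75th percentile. WBGene00035233 and WBGene00024592 dip at 95 cells, WBGene00028550 climbs to 1.83 at 190 cells, and the third 190-cell point of rank 3, at 3.18, stands above the other two.

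WBGene00028550 climbed furthest after the step. It stood at -5.09 and -5.79 at 4 cells, at -3.84, -4.70 and -4.82 at 28 cells and at -1.10, -1.52 and -1.20 at 55 cells. At 95 cells it read -0.62 and -0.33, and at 190 cells 1.64, 1.88 and 1.97. The arrays of each stage from 28 cells on lay wholly above those of the stage before. Its 190-cell level was 3.1 above its 55-cell level, or 8.60-fold, and at least 44.4-fold above 4 cells. Its 28-cell mean was 0.99 above the 4-cell mean, just inside the limit of 1.

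Rank 1 took a step of 4.56. Its 4-cell arrays read -3.31 and -2.95, its 28-cell arrays -2.81, -2.75 and -3.09, and its 55-cell arrays 2.00, 1.54 and 1.49. At 95 cells it stood at 2.31 and 1.65 and at 190 cells at 2.92, 3.09 and 3.13. The 3 stages from 55 cells on therefore held it above the array's 75th percentile on every array. Its mean 190-cell level was 3.05 ± 0.11 (SD, n = 3).

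Rank 2 had a step of 3.80 and read 0.89, 1.26 and 1.17 at 55 cells, 2.03 and 1.69 at 95 cells and 2.15, 2.77 and 2.15 at 190 cells. It had stood between -3.40 and -2.58 on the 5 earlier arrays. Rank 5 had a step of 4.66 after a 28-cell minus 4-cell difference of -0.73, and its arrays gave 0.21, 0.85 and 1.46 at 55 cells against -3.94, -3.88 and -3.63 at 28 cells. Rank 11 took a step of 4.62, from -5.13, -4.85 and -4.46 to -0.51, -0.21 and 0.14, with 4 of its 5 probes dim at 28 cells. In these members, too, the arrays on each side of the step stood far apart.

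After the step the members went different ways. The 190-cell mean lay at least 1 above the 55-cell mean in 13 members, above it by less than 1 in 7, and below it in 3. In 13 members every 190-cell array lay above every 55-cell array, against 21.7% of genes tested, and in 0 every one lay below, against 26.2%. The rule limited falls to 1, so nothing is read from these counts. The 190-cell level was the highest of the 5 stages in 17 members and the 95-cell level in 6, and the 55-cell level in none.

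**Figure D3:**
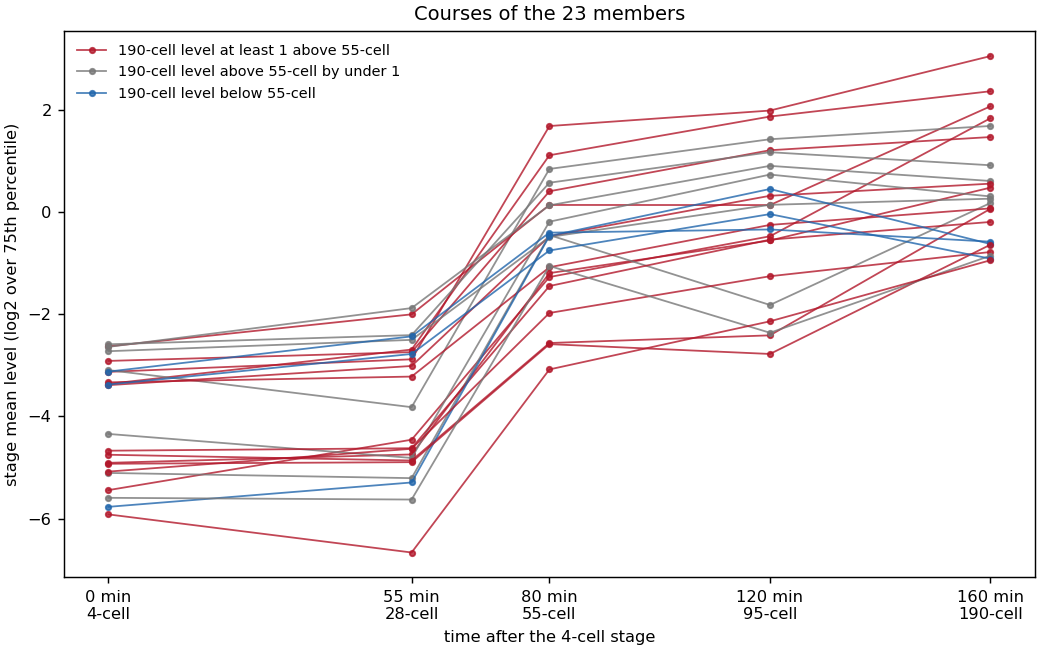
Stage mean level of each of the 23 members (lines) against minutes after the 4-cell stage, coloured by the difference between 190 and 55 cells. Means at 55 cells lay between -3.08 and 1.68 and at 190 cells between -0.95 and 3.05, and 13 lines (red) ended at least 1 above their 55-cell point.

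From 55 to 95 cells, 19 members stood higher at 95 than at 55 cells and 4 lower, with a median difference of 0.71, which the rule capped at 1. In 12 members both 95-cell arrays lay above all 55-cell arrays and in 2 below, against 20.3% and 31% of genes tested. By limma 0 members were called higher and 1 lower, against 7.39% and 12.4% of genes tested. The count of 1 moved with the setting: it was 0 without 95-cell A, 4 without 28-cell C, 3 without 190-cell C and 2 without 190-cell B. Direction moved as well: without 28-cell C 2 were higher and 2 lower, without 190-cell C 1 higher and 2 lower, and without 190-cell B 1 higher and 1 lower. Without 55-cell C the single call was a higher level, and the lower level of WBGene00035233 was no longer called.

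From 95 to 190 cells 6 members were called higher and 0 lower, against 4.71% and 2.66% of genes tested. The levels at both stages were part of the rule. The called members were ranks 1, 3, 15 and 19 with WBGene00028550 and WBGene00035233, and their differences ran from 1.07 to 2.47. The count fell to 3 without 95-cell A and to 1 without the arrays with contradictory tags, and it was 0 with spike-in scaling. A rise of this kind is plain in rank 15, which read -2.39, -3.04 and -2.26 at 55 cells and -2.55 and -2.28 at 95 cells before -0.42, -0.34 and 0.94 at 190 cells. Rank 19 went likewise from -2.95, -2.90 and -1.91 through -2.77 and -2.79 to -0.46, -1.23 and -0.24. In both members the 55-cell and 95-cell arrays overlapped and all 190-cell arrays stood above them.

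A few members leaned the other way. The 190-cell minus 95-cell difference was -1.08 in WBGene00029933, -0.87 in rank 22 and between -0.43 and -0.24 in 4 more members. None of the 6 was called. Rank 22 read -0.99, -0.76 and -0.51 at 55 cells, -0.37 and 0.29 at 95 cells and -0.38, -1.74 and -0.62 at 190 cells. Its 190-cell mean of -0.92 was close to the final limit of -1. It kept its membership in 8 of the 13 settings that left out an array, the fewest of any member.

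Rank 23, at the end of the order, stood at -6.06 and -5.77 at 4 cells. It read -6.51, -5.70 and -7.77 at 28 cells and -2.76, -3.10 and -3.38 at 55 cells, so the step was at least 2.95-fold. It then reached -2.08 and -2.2 at 95 cells and -0.93, -1.06 and -0.85 at 190 cells. Its 4-cell and 28-cell arrays overlapped, each stage from 55 cells on stood wholly above the one before, and the 190-cell level was at least 6.48-fold above 4 cells.

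Detection before the step varied between members. The scanner software marks a spot as well above background, and 13 of the 23 members had at least 1 probe so marked on both 4-cell arrays, against 47.2% of all genes. On both 28-cell arrays with flags 19 members did, against 60.4% of all genes. 7 members had no such probe on either 4-cell array and 2 had none at 28 cells, namely WBGene00024592 and rank 23. Over all genes, 48.6% had no such probe at 4 cells and 33.2% had none at 28 cells. Of the 67 probes 21 were above background on both 4-cell arrays, 35 on both flagged 28-cell arrays, 67 on all 55-cell arrays, 66 on both 95-cell arrays and 67 on all 190-cell arrays. Over all gene probes the share was 38.5%, 49.9%, 51.9%, 47.3% and 52.4%. The rule chose genes with low levels at 4 and 28 cells and higher ones later, so nothing is read from these counts. The dimmest detected probe read 17.5 and 25.7 intensity units on the 4-cell arrays and 13.8 and 16.9 on 28-cell A and B. It read 13.8 and 15.7 on 55-cell A and B, 28.1 on 95-cell A, and 10.3 and 10.6 on 190-cell A and B. On 55-cell C, 95-cell B and 190-cell C, scanned on a second date, it read 4.35, 4.44 and 4.52. The detection floor thus differed between arrays, and its part in these counts was not tested. None of the 67 probes had a saturated spot on an array with flags.

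**Figure D4:**
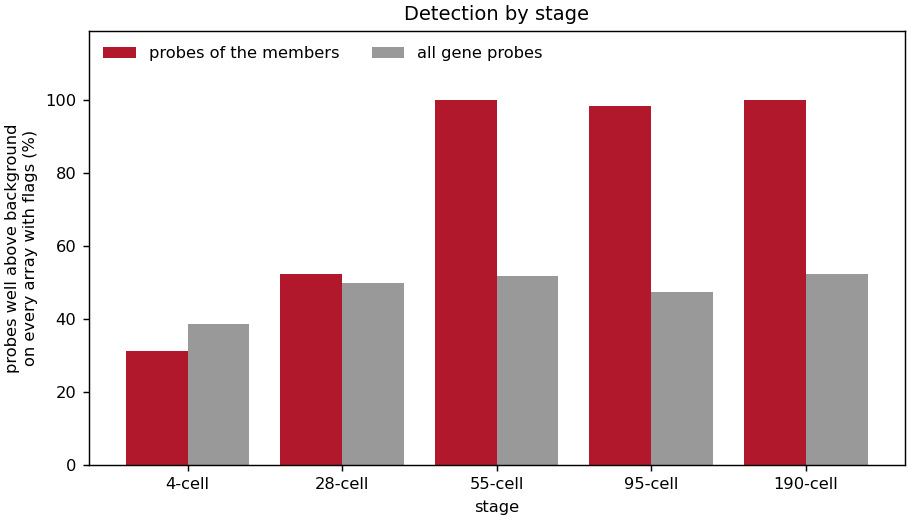
Share of probes well above background on every array with flags at each stage, for the 67 probes of the members (red) and all 42034 gene probes (grey). The members' probes went from 21 of 67 at 4 cells to 67 of 67 at 55 and 190 cells, while the share of all probes lay between 38.5% and 52.4%. The rule chose low levels at 4 cells and a step at 55 cells, so nothing is read from the contrast.

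Probes of a gene were compared as readings within the same arrays. 16 members had 2 probes and 7 had 5. Each of the 67 probes stood higher at 55 than at 28 cells, by 1.10 to 6.47, and 54 reached the step of 2 on their own. In 13 members every probe did. The rule asked for a step of at least 2 in the mean of these same probes, so nothing is read from these counts. The range between probes of a gene in the size of the step had a median of 0.73 and was largest in rank 5, where the probes gave 6.47 and 2.84. The first was not above background at 4 and 28 cells, and the second was above it on all arrays with flags at those stages. In rank 6 the probe steps ran from 1.10 to 4.36. With the probe lettered A of each gene alone the rule found 33 genes, 14 of them members.

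Probes of a gene were also compared on the course after the step. In 20 members every probe stood higher at 190 than at 55 cells, in WBGene00029933 none of the 5 did, and in 2 members the probes disagreed (1 of 5 higher in ranks 17 and 22). For 95 against 55 cells the probes disagreed in 3 members, with 1 of 2 lower at 95 cells in ranks 3 and 15 and 2 of 5 in rank 17.

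**Figure D5:**
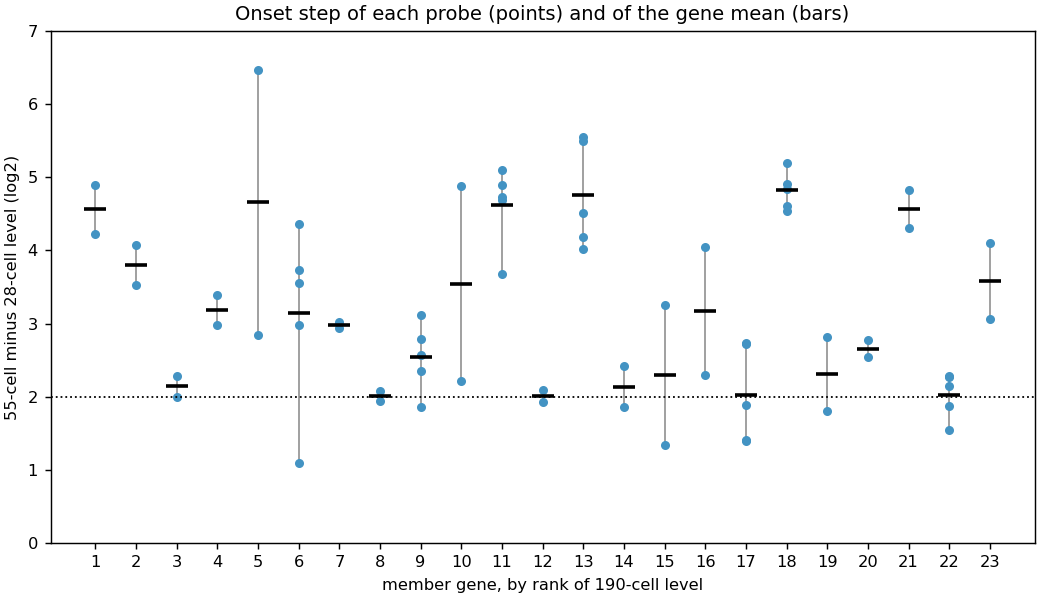
Difference between 55-cell and 28-cell level (log2) for each probe (points) and for the mean of the gene's probes (black bars), by rank of 190-cell level, with grey lines spanning a gene's probes and a dotted line at the rule's threshold of 2. All 67 points lie above 0, from 1.10 to 6.47, and the widest spans belong to ranks 5 and 6. The rule required each bar to reach 2.

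Replicates of a stage differed by amounts that bear on the smaller differences. The SD between arrays had a median over the members of 0.34 at 28 cells, against 0.46 over all genes. It was 0.31 at 55 cells (all genes 0.42) and 0.21 on the 95-cell pair (all genes 0.55). At 190 cells it was 0.58 (all genes 0.53) and on the 4-cell pair 0.21 (all genes 0.15). The 190-cell spread was widest in rank 12, which read -0.19 and -0.74 on arrays A and B and 1.70 on C; its 190-cell mean was 0.26 ± 1.28 (SD, n = 3) and -0.46 without 190-cell C. Rank 3 had 1.52 and 1.49 on A and B and 3.18 on C.

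The later-scanned arrays tended to read highest within their stage. 55-cell C, 95-cell B and 190-cell C were scanned on a second date. 55-cell C gave the highest value of its stage in 15 of 23 members, 95-cell B in 15 and 190-cell C in 17, while over all genes these arrays were highest in 23.4%, 24% and 19.9%. 28-cell C, which has no scan date here, was highest in 13 of 23 and in 21.6% of all genes. Scan date, staging of the embryos and amplification go together on each array and cannot be told apart, and their part in the members' levels was not tested. Without 55-cell C the 55-cell mean of 0 members moved by more than 1.5-fold, and without 190-cell C the 190-cell mean of 1 member did, rank 12.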

How the data were processed

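Gene expression was measured on 13 one-colour Cy3 arrays, 1 per sample, after 2 rounds of amplification by in vitro transcription per the labels' protocols. The deposited intensity is the processed signal, background-subtracted, of Feature Extraction 9.5.3.1 per the file headers, with no scaling between arrays. The series table equalled the scanner output on 12 arrays (relative tolerance 1e-06). No column of it was unmapped (0). Detection, saturation and outlier flags are those deposited by the authors. The array's 75th percentile of log2 intensity was subtracted. For tests, 207 probes with outlier flags were left out, and a probe was kept if detected throughout the flagged arrays of at least 1 stage (24781 probes, 13443 genes; all 67 member probes passed). One limma fit (version 3.58.1, R 4.3.3) of all 13 arrays compared stages, two-sided, with Benjamini-Hochberg adjustment over all genes, checked on simulated data. Members, lists and tests were chosen with earlier results of these data known. The naming rule took the 8 largest steps, the 4 highest 190-cell levels, the 4 largest rises and 4 largest falls from 55 to 190 cells and the 3 genes on each side of the step threshold; 4 members are printed by number, and rank 6 was described after its values were seen. Gene lists named from C. elegans could not be matched and were not used. Replicate letters are not stated to pair samples. Deviations were correlated above 0.1 in 10 of 23 same-letter array pairs across stages (r from -0.50 to 0.53). The same held in 17 of 44 pairs with different letters (r from -0.53 to 0.53). In stages with 2 arrays the deviations are mirror images, so these counts cannot show whether letters pair samples.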

Additional observations from a re-analysis of the deposited data

How the results depend on the processing

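The number of genes meeting the rule, 23, was 16 to 33 under other scalings, probe choices and array choices, and 15 (without 55-cell C) to 28 with an array left out. All 23 members were called between 28 and 55 cells with the replicate block, which used the letters A to C, and with scan date as a block; spike-in scaling called 14 and only probes detected on all arrays 13. Between 55 and 95 cells the count of 1 was 0 without the arrays with contradictory tags, with no filter on dim probes, with spike-in scaling and with commonly detected probes alone. It was 2 with probe A only (1 higher, 1 lower), 4 with quantile normalization (3 higher, 1 lower), 4 with scan date as a block (2 higher, 2 lower), 5 with the replicate block (4 higher, 1 lower, WBGene00029933 newly called at limma adjusted p = 0.045), 7 with normexp (5 higher, 2 lower), and 0 to 4 with an array left out. Between 95 and 190 cells the count of 6 was 0 with spike-in scaling, 0 with commonly detected probes alone, 1 without contradictory tags, and 3 to 8 with an array left out. Requiring detection on all arrays removes the members' dark probes by construction, and leaving out arrays leaves fewer samples; otherwise the cause was not tested. Scaling on all rows of the series table was not run, as it holds gene probes only. Normexp used median signals. Spike-in scaling, normexp, scan date as a block and the first scan date alone also left out 28-cell C, so their counts include that removal. Leaving out 28-cell C alone called 4 members between 55 and 95 cells (2 higher, 2 lower), the same counts as the scan-date block. Rescaled levels were centred on the main setting's mean offset. Dim probes limit sizes before 55 cells.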
